A study of Mus musculus with 8 samples.

Results

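The lipid-handling and phagocytic macrophage genes measured in mouse muscle were Gpnmb, Lgals3, Apoe, Trem2, Tyrobp, Cd63, Lyz2 and Fabp5. They were found by taking every probe whose gene symbol, in the annotation of the array, was on a list of 10 names. Of these 10 genes, 8 were found, with 16 of the 25697 probes of the deposited table, and Cd68 and Spp1 had no probe under their symbol or Entrez number and are not analysed here. The list was drawn up with the difference between p21 and control muscles in view, so that difference and the spread between p21 muscles are given for these genes as a description and not as a test.

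The tested muscles were tibialis anterior, a muscle at the front of the lower hindlimb, transfected with a plasmid for p21, and their reference was the same muscle transfected with a control plasmid. Both groups shared strain and sex (C57BL/6, male), an age of 8 weeks and an interval of 7 days between transfection and removal. Each group had 4 samples, numbered 1 to 4, and each sample was read on 1 array. The labels do not give the promoter of the plasmid, the share of fibres transfected or which muscles are the left and right of 1 animal, so p-values below reflect only how far these samples scatter, and that scatter may be technical. Values are log2 intensities, which ran from 8.13, the floor of the table, to 15.27 with a median of 8.39.

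Macrophages that clear dead cells and debris take up lipid and protein and break them down in lysosomes. Trem2 is a surface receptor for lipids and lipoproteins, and Tyrobp, also called DAP12, is the adaptor that carries its signal through an ITAM, a tyrosine motif bound by the kinase Syk. Apoe carries lipid out of the cell, Fabp5 binds fatty acids inside it, Gpnmb and Cd63 are membrane proteins of endosomes and lysosomes, Lyz2 is lysozyme and Lgals3 is galectin-3, a lectin that binds sugars on glycoproteins. In injured muscle such genes mark macrophages that have taken up debris. Apoe, Cd63, Lgals3 and Fabp5 are also made by other cells.

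Promoter sequences are shown for Gpnmb and Trem2, the members in which one p21 muscle stood farthest from the others, and for Cd63. The RefSeq table of build GRCm38.p6 held a promoter for 8 of the 10 genes, in 11 windows, and none for Tyrobp or Fabp5. Each window ran from 250 bases before to 50 after a start and was searched on both strands for TGANTCA, the site of AP-1 factors, for GAGGAAG, a core of PU.1 sites, and for CACGTG and TCATGTG, which MiT/TFE factors bind. The stretches below run from 120 bases before to 30 after the start, 5′ to 3′ on the strand of the gene, and capitals mark the matches.
Gpnmb, chr6:49036398-49036547, plus strand: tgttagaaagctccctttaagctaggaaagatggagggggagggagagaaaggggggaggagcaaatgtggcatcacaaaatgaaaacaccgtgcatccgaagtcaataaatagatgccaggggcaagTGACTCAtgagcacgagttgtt
Trem2, chr17:48346281-48346430, plus strand: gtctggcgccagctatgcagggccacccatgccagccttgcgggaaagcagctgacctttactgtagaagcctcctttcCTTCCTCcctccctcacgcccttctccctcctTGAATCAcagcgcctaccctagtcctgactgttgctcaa
Cd63, chr10:128909225-128909374, plus strand: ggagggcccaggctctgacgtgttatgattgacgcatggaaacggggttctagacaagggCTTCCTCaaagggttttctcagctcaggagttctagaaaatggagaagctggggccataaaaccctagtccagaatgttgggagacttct

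The letters TGANTCA were found in Gpnmb, Trem2 and Cd68, that is 3 of 8 genes. By window this was 3 of 11, against 7.81% of all 32851 windows. GAGGAAG, read on the other strand as CTTCCTC, was found in Trem2, Cd63 and Spp1, in 3 of the 11 windows, against 13.6% of all windows. CACGTG and TCATGTG were in 0 of the 8 genes' windows, against 7.15% and 3.77% of all windows. No match overlapped another in the stretches shown. These matches describe the sequence and say nothing of whether a factor bound there.

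All measured members except Fabp5 had at least 1 probe whose lowest p21 value exceeded its highest control value. That held for 10 of the 16 probes, against 7.41% of all probes on the array, with 16.7% apart in either direction. By limma 8 of the 16 passed an adjusted p of 0.05, all higher, against 3.68% of all probes called higher, 4.35% called lower and 8.03% called either way. These 8 belonged to 7 of the 8 genes, where by brightest probe 4.24% of named genes were called higher and 9.02% either way, and 8.22% had all p21 muscles above all controls. The count was 10 without p21 replicate 2 and 9 with the replicate number as a block, against 4.02% and 6.07% of all probes called higher under those settings. Since the members were picked on this contrast, these shares say nothing about them beyond the choice. Leaving out control replicate 1, 2, 3 or 4 gave 2, 3, 4 or 5 called probes, and leaving out p21 replicate 4 gave 1, that of Lgals3. Over all probes on the array the same omissions gave 379, 391, 1032, 1291 and 159 calls, in place of 2064.

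Among the surface pair, Trem2 read 9.83, 11.70, 9.49 and 9.37 in p21 replicates 1 to 4, against 8.56, 8.81, 8.67 and 8.65 in control replicates 1 to 4. All p21 muscles lay above all controls, and p21 replicate 2 lay far above the other p21 muscles, which were close to each other. The difference was 1.43 ± 0.40 on the log2 scale (SE, n = 4 per group), or 2.69-fold, and without p21 replicate 2 it was 0.89 or 1.85-fold.

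Tyrobp, the adaptor, read 10.86, 12.02, 10.83 and 11.33 in p21 replicates 1 to 4, against 9.35, 9.76, 10.09 and 10.22 in control replicates 1 to 4. Again the groups were apart and p21 replicate 2 was highest, but the controls spread more widely than for Trem2, with an SD of 0.39 for Tyrobp and 0.10 for Trem2. The difference was 1.41 ± 0.25, or 2.65-fold, and 1.15 without p21 replicate 2.

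Of the lipid carriers, Apoe read 12.39, 13.97, 11.79 and 12.47 in p21 replicates 1 to 4, against 10.33, 10.87, 10.60 and 11.22 in control replicates 1 to 4. The groups did not overlap, and p21 replicate 2 was again the highest. Its means were 12.65 ± 0.93 in p21 muscles and 10.76 ± 0.38 in control muscles (SD, n = 4), a difference of 1.90 ± 0.37 (SE) or 3.72-fold, and 1.46 without p21 replicate 2.

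Fabp5 stayed near the floor of the table in both of its probes. Its brighter probe read 8.33, 8.66, 8.32 and 8.35 in p21 replicates 1 to 4, against 8.31, 8.31, 8.28 and 8.38 in control replicates 1 to 4. Here p21 replicate 2 alone stood above the controls, and the other p21 muscles lay within their range. The other Fabp5 probe lay between 8.22 and 8.28 in p21 muscles and between 8.22 and 8.31 in control muscles. Probes this close to the floor give no measure of a change, so whether Fabp5 differed was not detectable here.

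Gpnmb, the lysosomal glycoprotein, had the largest difference of these genes by the brightest probe. That probe, ILMN_1236420, read 12.22, 14.39, 11.64 and 11.74 in p21 replicates 1 to 4, against 10.42, 10.65, 10.45 and 10.37 in control replicates 1 to 4. The control SD was 0.13, while p21 replicate 2 was 2.53 above the mean of the other p21 muscles, whose range was 0.58. The difference was 2.03 ± 0.47, or 4.07-fold, and without p21 replicate 2 it was 1.39 or 2.63-fold.

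The other 3 Gpnmb probes were dimmer. ILMN_2614655 read 9.08, 11.79, 8.89 and 8.85 in p21 replicates 1 to 4, against 8.45, 8.51, 8.37 and 8.43 in control replicates 1 to 4. Like the brightest probe it kept the groups apart and put p21 replicate 2 far above the rest. Its difference of 1.21 ± 0.51 was not called by limma (adjusted p = 0.184). Without p21 replicate 2 it was 0.50 and was called (adjusted p = 0.00158). The remaining pair, ILMN_2918882 and ILMN_2648669, averaged 8.41 and 8.34 in p21 muscles against 8.24 and 8.23 in control muscles, and in both the groups overlapped. In these, too, p21 replicate 2 was the highest array, at 8.81 and 8.61.

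Cd63, a tetraspanin of late endosomes and lysosomes, was higher by less. Its brightest probe, ILMN_3128907, read 13.36, 14.16, 13.28 and 13.44 in p21 replicates 1 to 4, against 12.81, 12.98, 12.95 and 12.93 in control replicates 1 to 4. The groups did not overlap, and the difference was 0.65 ± 0.16, or 1.56-fold, and 0.45 without p21 replicate 2. ILMN_2653617 gave a like difference of 0.62 ± 0.19, also with the groups apart, and was called with the replicate number as a block and without p21 replicate 2 but under no other setting. ILMN_3052430 gave 0.28 ± 0.14 with overlapping groups, so the 3 probes shared a direction but not a size.

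Lgals3 was the member whose difference was largest relative to its error. It read 13.40, 14.21, 13.44 and 13.67 in p21 replicates 1 to 4, against 11.68, 11.95, 12.41 and 12.21 in control replicates 1 to 4. The lowest p21 muscle was 0.99 above the highest control. The difference was 1.62 ± 0.19, or 3.07-fold, and 1.44 without p21 replicate 2. Lgals3 alone among the members stayed past adjusted p 0.05 in every alternative and with any single array left out. Since the members were chosen on this contrast, that describes the values and adds no support.

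The probes of Lyz2 also differed in size and direction. The brightest, ILMN_2766780, read 14.49, 14.87, 14.38 and 14.67 in p21 replicates 1 to 4, against 13.41, 13.98, 14.08 and 14.29 in control replicates 1 to 4, and differed by 0.66 ± 0.16 or 1.58-fold. The next, ILMN_1252076, read 13.47, 14.73, 13.29 and 13.91 in p21 replicates 1 to 4, against 11.68, 12.32, 12.42 and 12.92 in control replicates 1 to 4, and differed by 1.51 ± 0.30 or 2.85-fold. Both kept the groups apart and ranked the p21 muscles alike, but the first lay close to the maximum of 15.27. Whether differences are compressed there was not tested.

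The third Lyz2 probe, ILMN_2939681, went another way. It read 8.54, 9.36, 8.57 and 8.56 in p21 replicates 1 to 4, against 8.59, 8.65, 8.87 and 8.97 in control replicates 1 to 4. Only p21 replicate 2 was above the controls, and the difference was −0.01 ± 0.16. Lyz2 has a near copy, Lyz1, the lysozyme of Paneth cells, and a probe can bind transcripts of both, so values of the pair are uncertain as to gene. The brightest of 3 Lyz1 probes read 10.91, 12.10, 10.81 and 11.30 in p21 replicates 1 to 4, against 9.67, 9.99, 9.93 and 10.39 in control replicates 1 to 4, with a difference of 1.29 ± 0.25 (adjusted p = 0.0162). The other Lyz1 probes, ILMN_2878071 and ILMN_2736867, were dim, with means of 8.56 and 8.26. They differed by −0.01 ± 0.09 and 0.04 ± 0.03 with overlapping groups (adjusted p = 0.967 and 0.494).

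**Figure D1:**
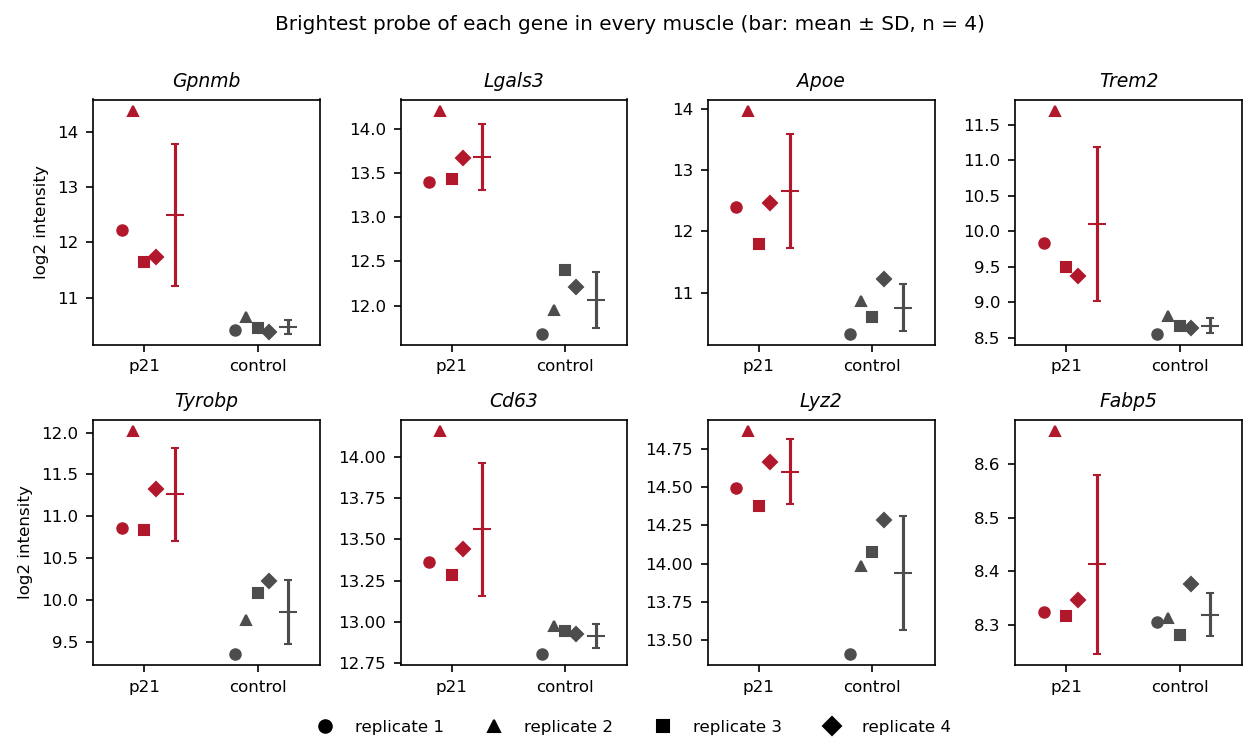
Log2 intensity of the brightest probe of each of the 8 genes in the p21 muscles (left, red) and the control muscles (right, grey), with a marker for each replicate number and bars for mean ± SD (n = 4). In 7 genes all p21 muscles lie above all control muscles, Fabp5 is near the floor of 8.13, and the triangle of p21 replicate 2 is the highest point in all 8 panels.

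**Figure D2:**
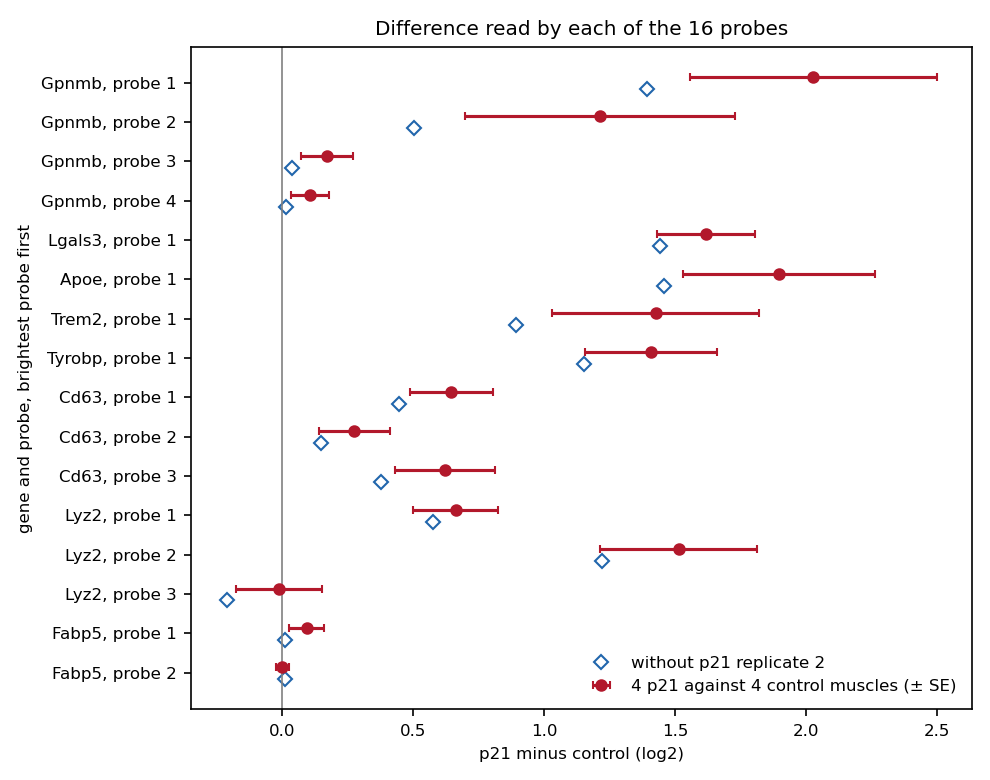
Difference between p21 and control muscles on the log2 scale (horizontal axis) for each of the 16 probes (vertical axis, brightest probe of a gene first), as red points with SE for all 8 muscles and open diamonds without p21 replicate 2. Bright probes of Gpnmb, Cd63 and Lyz2 lie right of 0 while the 2 dimmest Gpnmb probes, the dimmest Lyz2 probe and both Fabp5 probes lie near 0, and leaving out p21 replicate 2 moves 15 of the 16 values to the left.

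The p21 muscles differed more among themselves in these genes than the control muscles did. The SD over p21 muscles was larger than that over control muscles in 14 of the 16 probes, with a median ratio of 3.51, while over all probes brighter than the median the SD was larger in p21 muscles in 59.4%, with a median ratio of 1.18. The spread came largely from 1 muscle. In 15 of 16 probes p21 replicate 2 was the highest of all 8 muscles, and the exception was the dimmer Fabp5 probe. By brightest probe p21 replicate 2 was the highest p21 muscle in all 8 genes, against 31.0% of all 16593 named genes. Among all probes brighter than the median that share was 34.8%.

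Averaged over the 8 genes, the level relative to the control mean was 0.99, 2.12, 0.77 and 1.00 in p21 replicates 1 to 4, against −0.27, 0.04, 0.07 and 0.16 in control replicates 1 to 4. The other p21 muscles thus lay close together and well above the controls, and p21 replicate 2 stood apart from them. Cdkn1a, which encodes p21, was also highest in that muscle, by a smaller step. Its brightest probe read 11.31, 11.72, 11.25 and 11.50 in p21 replicates 1 to 4, against 9.83, 9.92, 10.27 and 10.02 in control replicates 1 to 4, a difference of 1.43 ± 0.12 (adjusted p = 0.000421), and the other Cdkn1a probes differed by 1.21 ± 0.11 and 0.99 ± 0.10. The part of the Cdkn1a level in the spread between p21 muscles was not tested.

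In 6 of the 8 genes p21 replicate 2 exceeded the next p21 muscle by more than 0.5, the exceptions being Lyz2 and Fabp5, and in all named genes that share was 1.67%. Outside the members the same held for 8 of 24 phagocytic receptors, 4 of 23 lysosome and tetraspanin genes, 2 of 19 macrophage markers and 4 of 8 markers of fibro-adipogenic cells, the last being Lum, Col1a1, Col3a1 and Dpt. The mean of the fibro-adipogenic markers relative to the control mean was 0.04, 0.47, 0.07 and 0.11 in p21 replicates 1 to 4, against −0.23, 0.17, −0.06 and 0.13 in control replicates 1 to 4, and its part in the values of the 8 genes was not tested. Cd9 and Clec7a were picked after their values were seen. Cd9, a tetraspanin like Cd63, read 10.59, 12.40, 10.46 and 10.59 in p21 replicates 1 to 4, against 10.41, 10.59, 10.47 and 10.52 in control replicates 1 to 4. Clec7a, a receptor for fungal glucans, read 9.28, 10.36, 8.95 and 9.12 in p21 replicates 1 to 4, against 8.63, 8.67, 8.63 and 8.76 in control replicates 1 to 4. In Cd9 only p21 replicate 2 left the range of the controls by more than 0.1, whereas in Clec7a every p21 muscle lay above every control. Neither gene passed the test (adjusted p = 0.434 for Cd9 and 0.0709 for Clec7a), but Clec7a did without p21 replicate 2 (adjusted p = 0.0061) and with the replicate number as a block (adjusted p = 0.0247).

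Markers of macrophages that are not among the 8 genes were higher in p21 muscles as well. Of 19 measured, 11 rose and 0 fell, against 4.24% and 4.79% of all named genes, with a median difference of 0.85 where that of all named genes was −0.004. Ms4a7, a membrane protein of tissue macrophages, rose by 1.97 ± 0.23 (adjusted p = 0.00213), with 11.99, 12.59, 11.75 and 12.37 in p21 replicates 1 to 4, against 9.65, 10.05, 10.35 and 10.76 in control replicates 1 to 4. The complement genes C1qc, C1qa and C1qb rose by 1.49 ± 0.22, 1.12 ± 0.17 and 1.46 ± 0.22 (adjusted p = 0.00711, 0.00714 and 0.00771). Laptm5, a lysosomal protein of blood cells, rose by 1.11 ± 0.20 and the antibody receptor Fcgr3 by 0.96 ± 0.17 (adjusted p = 0.0126 and 0.0134).

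Summed over the 19 markers, the linear intensity above the floor was 42239 to 59628 in p21 muscles, against 11890 to 26618 in control muscles. Adgre1, which encodes F4/80, had a difference of 0.84 ± 0.25 (adjusted p = 0.0621, and 0.00131 with the replicate number as a block). Cd163, Mrc1, Cx3cr1 and Spi1 also did not pass, with differences of −0.17 ± 0.08, 0.39 ± 0.17, 0.39 ± 0.14 and 0.22 ± 0.07 (adjusted p = 0.25, 0.189, 0.125 and 0.0643). Of these Spi1 was called with the replicate number as a block (adjusted p = 0.0219). Ccr2, Cybb and Itgam were near the floor, with differences of −0.02, 0.01 and 0.09, and Csf1r and Mpeg1 are not analysed here. Leaving out control replicate 1, control replicate 2 or p21 replicate 4 left 7, 6 or 4 markers called. Calls over all probes then numbered 379, 391 or 159, in place of 2064. In RNA of whole muscle, more cells of a type and more RNA per cell cannot be told apart, for these markers and for the 8 genes alike, and the part of the markers in the differences of the 8 genes was not tested.

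The order of the p21 muscles was not that of the 8 genes. Relative to the control mean, the macrophage markers averaged 0.63, 0.90, 0.65 and 0.95 in p21 replicates 1 to 4, against −0.35, −0.09, 0.19 and 0.26 in control replicates 1 to 4. Replicate 2 was the highest p21 muscle for 8 of the 19 markers and replicate 4 for another 8, while replicate 2 was highest for all 8 members by their brightest probe. Adgre1 read 10.18, 10.23, 10.14 and 11.14 in p21 replicates 1 to 4, against 9.22, 9.18, 9.70 and 10.21 in control replicates 1 to 4. Its highest p21 muscle was thus replicate 4. Among the controls, replicate 1 was lowest for 16 of the 19 markers and for 6 of the 8 members.

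**Figure D3:**
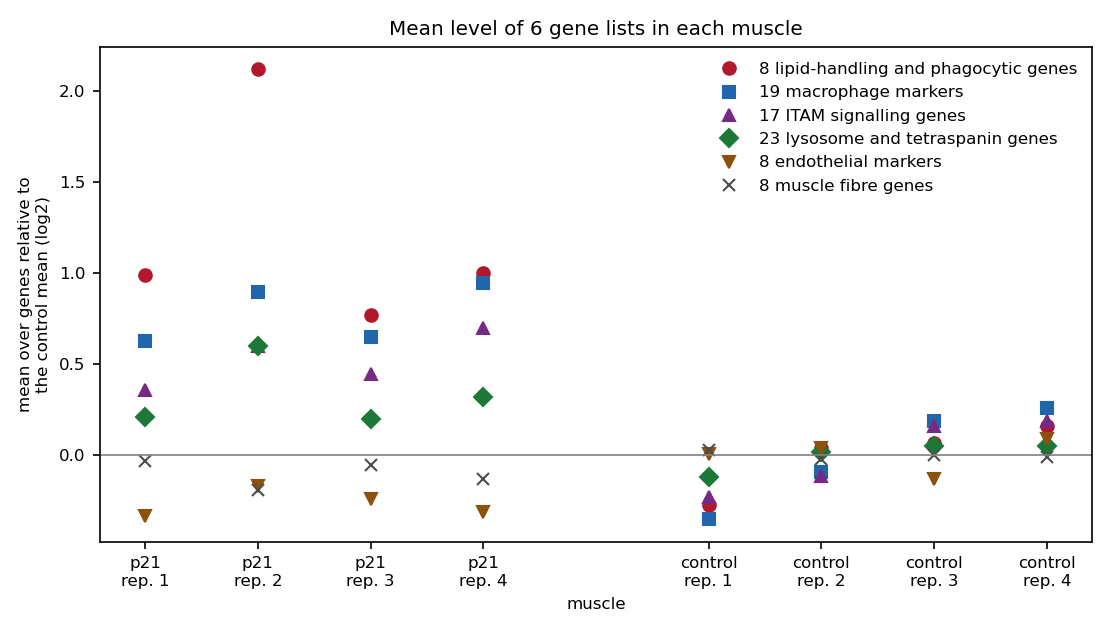
Mean over the genes of 6 lists, each relative to its control mean on the log2 scale (vertical axis), in the 4 p21 muscles (left) and the 4 control muscles (right). The 8 lipid-handling and phagocytic genes reach 2.12 in p21 replicate 2 and 0.77 to 1.00 in the other p21 muscles, while the macrophage markers lie between 0.63 and 0.95 in all of them.

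Genes that act beside Trem2 and Tyrobp rose in large part. Of 17 measured adaptors, receptors and kinases of ITAM signalling, 9 rose and 0 fell, against 4.24% and 4.79% of all named genes. The median difference was 0.36. Fcer1g, another ITAM adaptor, read 13.33, 13.71, 13.59 and 14.13 in p21 replicates 1 to 4, against 11.31, 11.88, 12.61 and 12.88 in control replicates 1 to 4. It rose by 1.52 ± 0.29 (adjusted p = 0.016), and p21 replicate 2 did not stand apart in it. Sirpa, an inhibitory receptor for the signal CD47, rose by 1.35 ± 0.24 and Ptpn6, the phosphatase SHP-1 that such receptors recruit, by 1.17 ± 0.25 (adjusted p = 0.0124 and 0.0219).

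Lat2, an adaptor of myeloid and B cells, rose by 1.09 ± 0.16, the exchange factor Vav1 by 0.97 ± 0.19 and the adaptor Hcst, also called DAP10, by 0.36 ± 0.07 (adjusted p = 0.00705, 0.0166 and 0.0189). Syk, the kinase of the pathway, had a difference of 0.02 ± 0.03. Trem1 and Trem3, receptors of the same family as Trem2, had −0.05 ± 0.04 and 0.02 ± 0.04. The probes of Syk, Trem1 and Trem3 were all near the floor and give no measure of a change. These 3 were named after their values were seen and did not pass the test. Leaving out control replicate 1, control replicate 2 or p21 replicate 4 left 3, 2 or 1 genes called, where calls over all probes went from 2064 to 379, 391 or 159.

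In the compartment that holds Gpnmb, Cd63 and Lyz2, 9 of 23 measured lysosome and tetraspanin genes rose and 0 fell, with a median of 0.25. Of all named genes 4.24% rose and 4.79% fell. Grn, which encodes progranulin, read 12.45, 13.31, 12.45 and 12.86 in p21 replicates 1 to 4, against 10.98, 11.55, 11.80 and 11.78 in control replicates 1 to 4, and rose by 1.24 ± 0.21 (adjusted p = 0.0121). The cathepsin proteases Ctsz, Ctsb and Ctss rose by 0.82 ± 0.13, 0.74 ± 0.15 and 0.61 ± 0.08 (adjusted p = 0.00973, 0.0175 and 0.00377). The other cathepsins of the list, Ctsk, Ctsd and Ctsl, did not pass the test. They had differences of 0.74 ± 0.35, −0.03 ± 0.05 and −0.03 ± 0.05 (adjusted p = 0.24, 0.749 and 0.777), and Ctsk was called with the replicate number as a block (adjusted p = 0.0193). The probes of Ctsd and Ctsl were dim, with means of 8.65 and 8.46, and give little measure of a change. The tetraspanin Cd82 rose by 0.73 ± 0.11 and Psap, the precursor of the saposins, by 0.49 ± 0.11 (adjusted p = 0.00714 and 0.0224). Of the MiT/TFE factors that drive lysosomal genes, Mitf, Tfec and Tfeb were near the floor and Tfe3 had a difference of 0.07 ± 0.06, and none of the 4 passed the test. With control replicate 1, control replicate 2 or p21 replicate 4 left out, 4, 4 or 3 genes were called. Over all probes 379, 391 or 159 were then called, in place of 2064.

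Other genes of lipid uptake, storage and efflux mostly did not pass the test. Of 17 measured, 3 rose and 0 fell, against 4.24% and 4.79% of all named genes, with a median of 0.05. With the replicate number as a block 6 rose, where 2335 of 16593 named genes were called in either direction. Npc2, which moves cholesterol out of lysosomes, rose by 0.62 ± 0.10, the cholesterol exporter Abcg1 by 0.38 ± 0.07 and Lrp1, a receptor for Apoe, by 0.20 ± 0.05 (adjusted p = 0.00938, 0.0124 and 0.0345). The block added the lysosomal lipase Lipa, the lipid droplet protein Plin2 and the sterol receptor Nr1h3, at 0.46, 0.33 and 0.25. The scavenger receptors Cd36 and Msr1 and the exporter Abca1 were near the floor, with differences of −0.02, −0.03 and 0.00. Leaving out p21 replicate 4 left 1 gene of this list called, where 159 in place of 2064 probes were called on the whole array. The call of Lrp1 was lost without any one array other than p21 replicate 3.

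Few phagocytic receptors and engulfment genes passed the test. Of 24 measured, 2 rose and 1 fell, against 4.24% and 4.79% of all named genes, with a median of 0.09 and 19 of the 24 above 0. With the replicate number as a block 9 were called, 8 of them higher, where 2335 of 16593 named genes were called in either direction. Axl, a receptor for dying cells, read 12.72, 12.89, 12.62 and 12.87 in p21 replicates 1 to 4, against 11.47, 11.98, 12.09 and 12.16 in control replicates 1 to 4, and rose by 0.85 ± 0.14 (adjusted p = 0.0106). Megf10, an engulfment receptor that satellite cells also make, rose by 0.48 ± 0.10, and Stab2, a scavenger receptor of endothelial cells, fell by 0.30 on the log2 scale (adjusted p = 0.0224 and 0.0327). The block added Mertk, Pros1, Cd14, Clec7a, Elmo1 and Rac2, at 0.38 to 0.76, and of these Clec7a and Mertk were also called without p21 replicate 2 (adjusted p = 0.0061 and 0.0253). The call of Stab2 was lost in 7 settings, among them without p21 replicate 2, and that of Megf10 without p21 replicate 4 or control replicate 1, 2 or 3. The list had 1 call without control replicate 1, 2 or 3 and 0 without p21 replicate 4. For all probes these omissions gave 379, 391, 1032 and 159 calls, in place of 2064.

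Receptors and partners of the proteins that the members encode included 5 of 13 that rose and 0 that fell, against 4.24% and 4.79% of all named genes. Their median difference was 0.09. Timp1, a metalloprotease inhibitor that binds Cd63, read 11.30, 11.97, 11.51 and 11.64 in p21 replicates 1 to 4, against 9.60, 10.81, 10.54 and 10.41 in control replicates 1 to 4, and rose by 1.27 ± 0.22 (adjusted p = 0.0128). Lgals3bp, a glycoprotein bound by galectin-3, rose by 0.84 ± 0.17 (adjusted p = 0.0201). The integrin subunits Itga5 and Itga9 rose by 0.40 ± 0.10 and 0.09 ± 0.03 (adjusted p = 0.0307 and 0.0435), Itga9 near the floor, and Lrp1 is also on this list. Vldlr, another receptor for Apoe, had a difference of −0.60 ± 0.19 (adjusted p = 0.078, and 0.013 with the replicate number as a block). Leaving out p21 replicate 2 or 4 gave 3 or 0 calls, and leaving out control replicate 1, 2, 3 or 4 gave 2, 1, 2 or 2. For all probes, where 2064 were called, these p21 omissions gave 1938 or 159 calls. The control omissions gave 379, 391, 1032 or 1291.

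**Figure D4:**
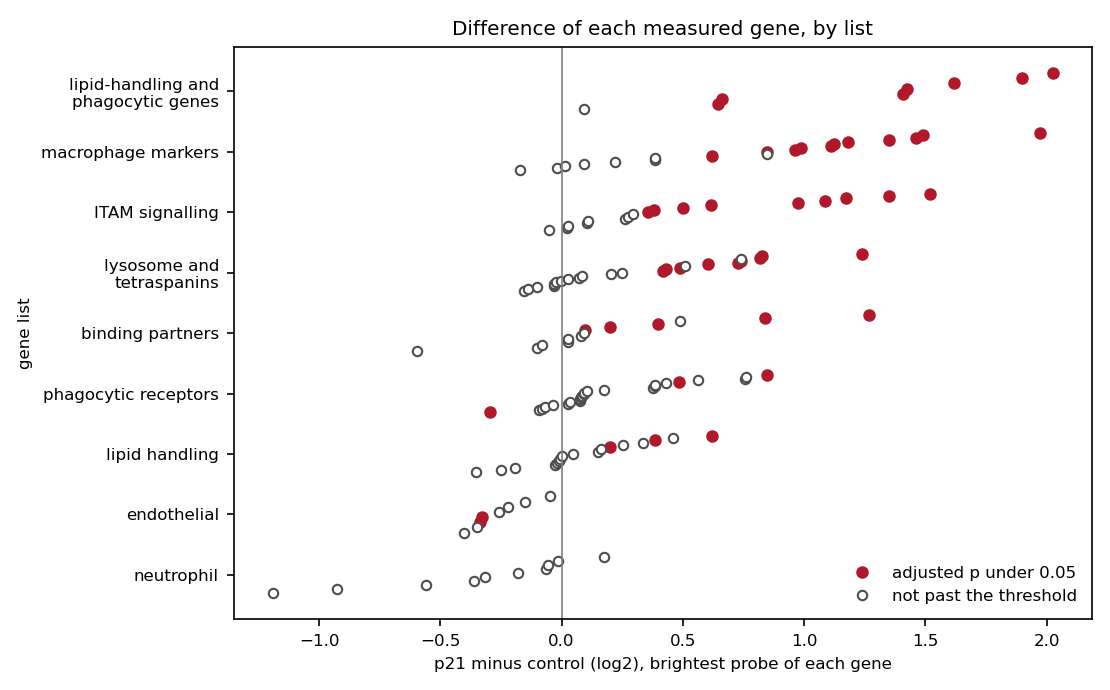
Difference between p21 and control muscles on the log2 scale (horizontal axis) of each measured gene of 9 lists (rows), with filled points past adjusted p 0.05 and open points not past it. The lipid-handling and phagocytic genes in the top row were chosen on this contrast, the macrophage markers and ITAM signalling genes have 11 and 9 filled points right of 0, and the lipid handling list has 3.

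Of the other cell types taken here, few markers passed the test. Markers of fibro-adipogenic cells, smooth muscle and pericytes are given under the other observations. Of 8 endothelial markers 0 rose and 2 fell, Vwf and Tek, by 0.34 and 0.33 on the log2 scale (adjusted p = 0.0362 and 0.0396), while all 8 had differences below 0 with a median of −0.29 and 7 were at an unadjusted p under 0.05, and 5 were called with the replicate number as a block. By limma 0 of 10 neutrophil markers, 0 of 10 T and NK cell markers and 0 of 7 dendritic cell markers passed, with 4, 4 and 0 at an unadjusted p under 0.05 and 2, 5 and 0 called with the replicate number as a block. The neutrophil calls with the block were S100a8 at −1.19 and Csf3r at 0.18, and all 5 T and NK cell calls were higher. Of all named genes 4.24% rose and 4.79% fell. Among the 16593 named genes 4075 were at an unadjusted p under 0.05 and 2335 were called with the block. The call of Vwf was lost without any one array other than p21 replicate 2 or 3, and that of Tek without any one other than p21 replicate 3. Without p21 replicate 2, 1 neutrophil marker and 4 T and NK cell markers were called higher. The neutrophil sum above the floor was 679 to 1283 in p21 muscles, against 472 to 7577 in control muscles, and all 7 dendritic cell markers had a mean under 8.5. Of B cell, mast cell and adipocyte markers 0 of 3, 0 of 4 and 0 of 4 passed, with 0 at an unadjusted p under 0.05 and 0 with the block, and of 2 Schwann cell markers 0 passed, with 2 at an unadjusted p under 0.05 and 1 with the block. Of 8 muscle fibre genes Myh4, the fast myosin of type IIB fibres, fell by 0.44 on the log2 scale (adjusted p = 0.0334), a call lost without the trend and without p21 replicate 4 or control replicate 1, 2 or 3. Their sum was 178642 to 192635 in p21 muscles, against 193888 to 199451 in control muscles.

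The 8 named genes outside the list given here followed the members most closely over the 8 muscles. Likeness was the mean absolute distance, in log2 units, between a gene's levels relative to its own control mean and the average of the members taken the same way, among probes brighter than the median. Capn6, a calpain family gene, was nearest at 0.0847, then the kinase inhibitor gene Cdkn1c at 0.102 and the growth receptor adaptor Grb10 at 0.105. Cdkn1c read 12.88, 13.88, 12.47 and 12.90 in p21 replicates 1 to 4, against 11.42, 11.95, 11.68 and 12.03 in control replicates 1 to 4. Lyz1, Atp1b4, the actin capping gene Capg, the lysosomal hydrolase Gusb and the leukocyte receptor Cd84 followed at 0.112 to 0.136. In each of the 8 genes p21 replicate 2 was 0.93 to 1.48 above the mean of the other p21 muscles. All but Gusb (adjusted p = 0.052) passed the test, with differences of 0.99 to 1.29. The 8 genes were picked for likeness to the members over these same muscles. Their differences, their calls and their high p21 replicate 2 therefore follow from that choice and add no support.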

How the data were processed

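Total RNA was amplified and labelled with biotin for 1-colour Illumina bead arrays, per the labels' protocols. The authors deposited log2 intensities for 25697 probes, with software, background correction and normalization not given in the sources used here. Sorted from low to high, values at the same rank agreed to within 0.00073 on all 8 arrays, as quantile normalization leaves them. No probe was filtered and no detection call was used. Platform annotation gave 23978 probes 1 symbol, 0 several and 1719 none here.

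The difference between groups was fitted by limma 3.58.1 under R 4.3.3 (lmFit, eBayes with an intensity trend). Its two-sided p-values were adjusted over every probe in the table (Benjamini-Hochberg), and 0.05 was the threshold. Of all probes 2064 passed, or 8.03%, and 3186 with the replicate number as a block. Members, lists and the naming rule were chosen with earlier results of these data known. The 5 pathway lists and 12 marker lists held 201 names, of which 177 were measured, each by its brightest probe. The rule names all probes of the members and Cdkn1a, up to 6 called genes with the smallest p per pathway list and for macrophage markers, up to 3 per other marker list, any call against the majority, and the 8 genes nearest to the members' mean profile.

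The labels number both groups 1 to 4 without saying what a number marks. Deviations from group means correlated across probes at 0.483, 0.264, 0.212 and 0.181 between arrays of the same number, all above the limit of 0.1. On this basis the numbers were read as pairs from the data, but only in the block alternative. The main fit was unpaired, and so is every SE, p-value and call given without mention of the block. The pairing is doubtful: the best match of control replicate 3 was p21 replicate 4 (0.448), and that of control replicate 4 was p21 replicate 2 (0.297). Alternatives were this block, eBayes without the trend or robust, array weights, repeated quantile normalization, a background-subtracted scale with an offset of 16, brighter probes, averaging probes per gene, and dropping single arrays.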

Additional observations from a re-analysis of the deposited data

Results flagged for a closer look

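In 11 of 124 groups of 4 arrays tested over 62 probes, 1 array lay far outside the other 3 by Dixon's criterion, where chance gives about 1 in 20 for probes picked without regard to their values. These probes were not: the members were chosen with the spread between p21 muscles in view and 8 further genes for following them, so the count is a description. In 9 of the 11 that array was p21 replicate 2, high in each. Among the members it read 11.79 for Gpnmb (ILMN_2614655), 12.15 for Cd63 (ILMN_2653617), 9.36 for Lyz2 (ILMN_2939681) and 8.66 for Fabp5 (ILMN_2685290). Outside them it read 10.84 for Cd84, 12.81 for Gusb, 9.64 for Itga5, 11.18 for Col3a1 and 13.94 for Acta2. The other flags were control replicate 3, high at 8.28 for a dim Gpnmb probe (ILMN_2918882), and p21 replicate 3, high at 8.64 for Stab2.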

How the results depend on the processing

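Repeated quantile normalization left each count named here as it was. The block on replicate number raised the calls to 3186 probes in place of 2064, with 6 in place of 3 for lipid handling and 9 in place of 3 for phagocytic receptors, and no call of a pathway list or macrophage marker was lost. Member probes called numbered 4 without the trend and 3 with robust eBayes in place of 8, macrophage markers 7 with robust eBayes in place of 11, and binding partners 3 without the trend in place of 5. The cause was not tested.

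With 1 array left out, calls ranged from 159 to 2162 over all probes, from 1 to 10 of the member probes, from 1 to 4 for lipid handling, from 0 to 4 for phagocytic receptors, from 1 to 10 for ITAM signalling, from 3 to 10 for lysosome and tetraspanin genes, from 0 to 5 for binding partners and from 4 to 12 for macrophage markers. Over all probes, dropping control replicate 1, 2, 3 or 4 gave 379, 391, 1032 or 1291 calls, and dropping p21 replicate 4 gave 159. Differences that changed sign were near 0 and not called. With 1 array left out they ranged from −0.212 to 0.0609 for the dimmest Lyz2 probe (ILMN_2939681) and from −0.0107 to 0.0184 for the dimmer Fabp5 probe (ILMN_1235908). Signals near the floor of 8.13 limit what Fabp5 and the dim probes of Gpnmb and Lyz2 can show.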

Other observations

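Stromal and vessel wall markers gave mixed values, where 4.24% of all named genes rose and 4.79% fell. Of 8 markers of fibro-adipogenic cells, Col3a1, a fibrillar collagen, rose by 0.77 ± 0.17 (adjusted p = 0.0224) and 0 fell, while Dcn and Col1a1, named after their values were seen, had differences of −0.12 ± 0.07 and 0.25 ± 0.27 and did not pass. Of 6 markers of smooth muscle and pericytes, Acta2, smooth muscle actin, rose by 0.78 ± 0.14, and Rgs5 of pericytes and Myh11 of smooth muscle fell by 0.43 and 0.38 on the log2 scale (adjusted p = 0.0154, 0.0135 and 0.0203). The call of Rgs5 was lost without p21 replicate 4, that of Acta2 likewise, that of Myh11 also without control replicate 1 or 2, and that of Col3a1 without control replicate 1, 2 or 3 or p21 replicate 4.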
